A study of Mus musculus with 8 samples.

Results

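The 9 genes described here mark microglia and were read from RNA-seq of the adult mouse hippocampus and prefrontal cortex (PFC). They were chosen by gene name, as 9 of the 34620 names in the table of normalized counts: Aif1, Tmem119, P2ry12, Cx3cr1, Csf1r, Trem2, C1qa, C1qb and C1qc. Total RNA came from 4 hippocampus libraries (Hippocampus replicates 1 to 4) and 4 PFC libraries (Prefrontal_cortex replicates 1 to 4), and each library held tissue pooled from 2 mice. All mice were untreated C57Bl6 animals, 7 to 9 weeks old by the sample labels (a paragraph of the study's methods on RNA preparation gives an older range), and the labels name no difference between the groups other than the dissected region. A pool of 2 animals averages over them, so the spread given below is between pools. The total of mice in the methods makes only 4 such pools, so each pool seems to have given tissue of both regions, and which hippocampus and PFC libraries share a pool is not given in the sources used here. The libraries are whole tissue, in which microglia are a minority of the cells, and fewer microglia cannot be told apart from less of an RNA in each of them.

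Microglia are the resident macrophages of the brain. They enter the brain early in embryonic life and depend on the receptor encoded by Csf1r, which is activated by the ligands Csf1 and Il34. Cx3cr1 and P2ry12 are receptors through which microglia sense signals from nearby cells: the neuronal chemokine Cx3cl1 for Cx3cr1, and ADP released from active or injured cells for P2ry12. Trem2 is a lipid-sensing receptor that signals through the adaptor Tyrobp. The 3 C1q genes encode the chains of complement component C1q, which can tag synapses for removal by microglia. Aif1 encodes the calcium-binding protein Iba1, and Tmem119 encodes a membrane protein used to tell microglia from other macrophages.

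All 9 genes were detected in every library, with 20 to 2590 reads per gene and library. The libraries held 3164964 to 16636500 reads assigned to genes, and a count of 3 reads corresponded to 1.30 to 6.93 normalized counts. Hippocampus replicate 2 stood apart from the other libraries. It was the highest of the 8 libraries in 23% of the 19789 genes tested and the lowest in 19.4%, and 24.3% of the 12957 genes that averaged 20 normalized counts or more lay more than 1.5-fold from the median of the other 3 hippocampus libraries, against 3.57 to 9.82% in the other libraries. Where leaving it out moved a result of the microglia genes by more than 1.5 times, both values are given below. Xist RNA (1670.4 to 5232 normalized counts) and the Y-linked Ddx3y (155 to 393) were present in every library, although the study's methods describe male mice. How the pools were formed was not tested.

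The promoters of 6 of the 9 genes (Aif1, Cx3cr1, P2ry12, Trem2, C1qb and C1qc) were matched by symbol in the RefSeq promoter table of the GRCm38.p6 build, as the 300 bases that run from 250 bases before to 50 bases after the annotated start. Those of C1qb and C1qc are printed because these neighbours on chromosome 4 had the same order of libraries in the hippocampus. That of Trem2 is printed because Trem2 moved the other way in Hippocampus replicate 2. This is not particular to Trem2: C1qa (1.66), Aif1 (1.15) and Cx3cr1 (1.09) also lay above the median of the other hippocampus libraries there. The order of C1qb and C1qc is not particular to neighbours: Csf1r and Tmem119, on other chromosomes, also had Hippocampus replicate 2 lowest and replicate 4 next. Capitals mark the letters GAGGAA or GGAAGT, or their reverse complements TTCCTC and ACTTCC. Both strings hold the GGAA core letters that transcription factors of the ETS family recognise, and matches can overlap.
C1qb (chr4:136886151-136886450, minus strand): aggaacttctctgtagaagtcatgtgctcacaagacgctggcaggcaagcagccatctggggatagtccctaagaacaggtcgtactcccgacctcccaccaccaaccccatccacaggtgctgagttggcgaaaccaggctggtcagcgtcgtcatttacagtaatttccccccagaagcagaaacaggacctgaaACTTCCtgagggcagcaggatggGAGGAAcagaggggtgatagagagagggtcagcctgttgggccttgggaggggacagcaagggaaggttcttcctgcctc
C1qc (chr4:136892865-136893164, minus strand): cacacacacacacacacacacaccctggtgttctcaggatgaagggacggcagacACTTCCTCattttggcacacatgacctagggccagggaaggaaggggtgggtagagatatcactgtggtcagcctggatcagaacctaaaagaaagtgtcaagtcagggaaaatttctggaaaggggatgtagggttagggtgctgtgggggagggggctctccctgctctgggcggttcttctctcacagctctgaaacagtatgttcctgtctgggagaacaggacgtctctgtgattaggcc
Trem2 (chr17:48346151-48346450, plus strand): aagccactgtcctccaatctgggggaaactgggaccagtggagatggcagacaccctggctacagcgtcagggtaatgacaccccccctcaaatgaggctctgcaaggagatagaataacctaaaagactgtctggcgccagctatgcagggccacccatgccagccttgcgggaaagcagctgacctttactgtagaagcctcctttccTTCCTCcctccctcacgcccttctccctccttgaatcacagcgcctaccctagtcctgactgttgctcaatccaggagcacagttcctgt
GAGGAA was found on either strand in 4 of the 6 promoters (Aif1, C1qb, C1qc and Trem2), and 28.3% of all 32851 promoters of the table hold it. GGAAGT was found in 3 of the 6 (P2ry12, C1qb and C1qc), against 23.8% of all promoters. The Cx3cr1 promoter held neither string in this window. These are matches of letters and not measured binding sites.

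C1qa, C1qb and C1qc lie next to each other on chromosome 4 of the NCBIM37 build, within 18.7 kb (chr4:136436044-136454718) and all on the minus strand. C1qb is at chr4:136436044-136442102, C1qc at chr4:136445719-136448980 and C1qa at chr4:136451832-136454718. Aif1 (chr17:35307936-35313013, minus strand) and Trem2 (chr17:48485726-48493472, plus strand) are both on chromosome 17. Cx3cr1 is at chr9:119957811-119977400 and Tmem119 at chr5:114243738-114250525, both on the minus strand. P2ry12 (chr3:59020193-59066753, minus strand) lies inside Med12l, which is on the opposite strand, and the exons of the pair share 0 bases. Csf1r (chr18:61265226-61291803, plus strand) overlaps Hmgxb3 on the opposite strand, and 871 bases, or 16.7% of the annotated Csf1r exon length, are shared between them. Because reads were counted without regard to strand, reads from that stretch cannot be assigned to Csf1r or Hmgxb3. All 9 genes are annotated as protein-coding.

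None of the 9 genes passed the test between the hippocampus and the PFC. The comparison asks whether microglial RNA differs between the regions. The test was limma on log2(normalized count + 1), and p-values were adjusted by Benjamini-Hochberg over all 19789 genes tested, with a threshold of 0.05. Of all genes 5.68% passed, 505 of them higher in the hippocampus and another 619 higher in the PFC. All 9 microglia genes passed the filter on low values, and 0 of 9 passed the threshold by limma, by edgeR (which called 5.91% of all genes) or by DESeq2 (7.39%). At an unadjusted p under 0.05 by limma there were 2 of the 9 (Tmem119 and C1qb), against 16.9% of all genes (3350). The log2 fold changes of hippocampus over PFC ran between -0.52 and 0.28 with a median of -0.08, beside a median of 0.00379 over all genes. Fold changes were positive for Aif1 and P2ry12 and negative for Tmem119, C1qa, C1qb and C1qc under every alternative tried, while those of Cx3cr1, Csf1r and Trem2 turned sign under some.

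**Figure D1:**
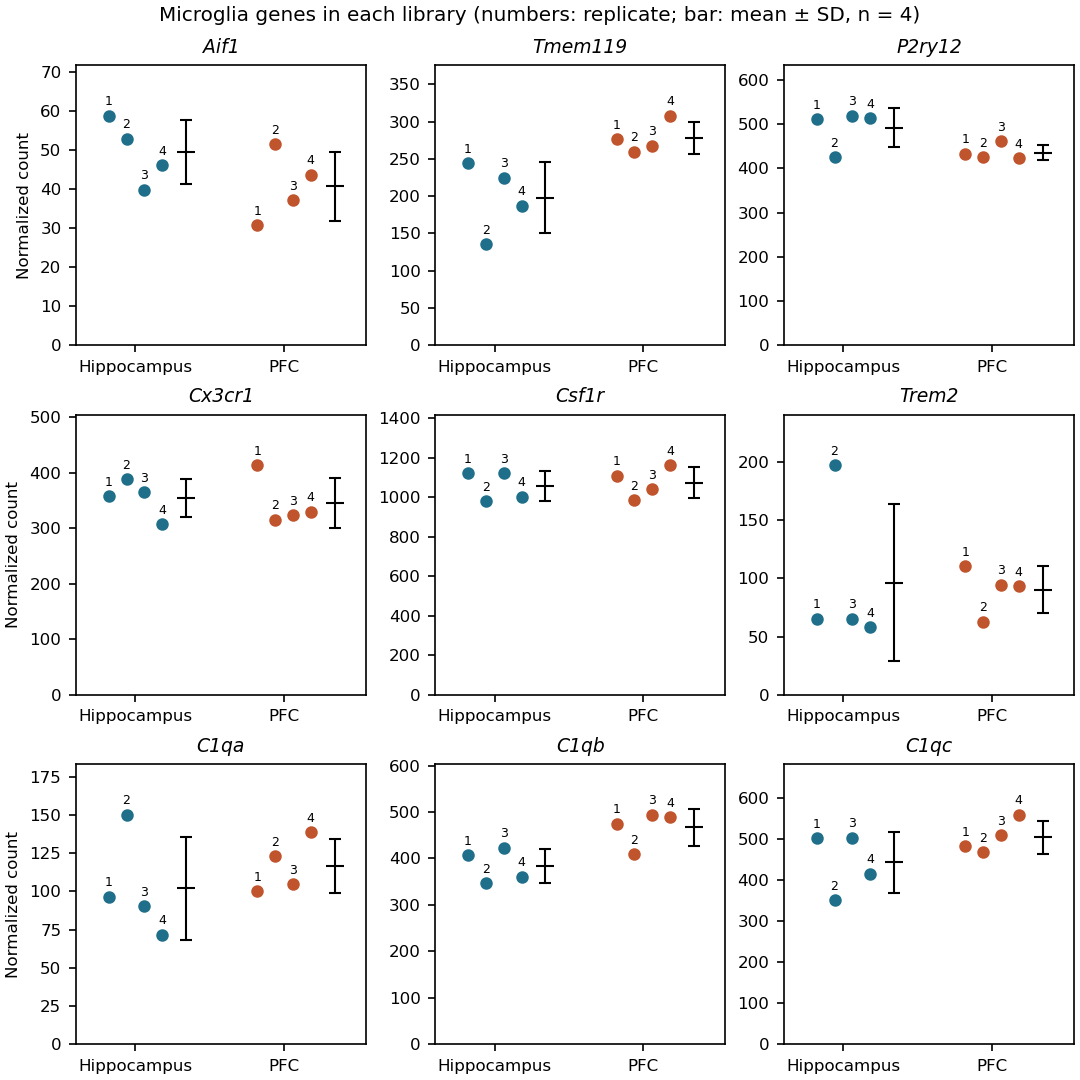
Normalized counts of the 9 microglia genes (y axis of each panel, starting at 0) in the 4 hippocampus libraries (blue) and the 4 PFC libraries (orange), with the replicate number above each point and the mean ± SD (n = 4) at the side. The regions overlap in every panel except Tmem119, and Hippocampus replicate 2 lies alone at 197 normalized counts in the Trem2 panel.

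Tmem119 came closest to the threshold. It had 244, 136, 225 and 187 normalized counts in the hippocampus libraries, in the order of replicates 1 to 4, against 277, 259.9, 268 and 308 in the PFC libraries. Every PFC library lay above every hippocampus library, which no other of the 9 genes showed, while 11.8% of all genes tested were separated in this way in either direction. Mean levels were 198 ± 47.8 in the hippocampus, against 278 ± 21.1 in the PFC (n = 4 each, ± SD). The log2 fold change was -0.52 (SE 0.17, 95% interval -0.87 to -0.17), with an adjusted p of 0.085 by limma, 0.13 by edgeR and 0.081 by DESeq2. Hippocampus replicate 2 held the lowest value and Prefrontal_cortex replicate 4 the highest. Without Hippocampus replicate 2 the log2 fold change was -0.35 (adjusted p 0.077), without Prefrontal_cortex replicate 4 it was -0.47 (adjusted p 0.26), and without both it was -0.30 (adjusted p 0.16). Over all alternatives tried, the adjusted p of Tmem119 lay between 0.055 and 0.26.

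Aif1, the gene of the classical microglia stain Iba1, was among the scarcest of the 9. It had 58.9, 52.9, 39.9 and 46.2 normalized counts in the hippocampus, against 30.7, 51.5, 37.2 and 43.7 in the PFC. The ranges overlapped, and the values of Hippocampus replicate 4 and Prefrontal_cortex replicate 1 rested on 20 reads each, which gave 95% Poisson intervals of 28.2 to 71.4 and 18.8 to 47.5 normalized counts. These intervals cover counting error only, and amplified reads are not independent molecules. The log2 fold change of Aif1 was 0.28 (95% interval -0.22 to 0.79, adjusted p 0.64 by limma), and 0.16 without Prefrontal_cortex replicate 1.

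P2ry12, the ADP receptor that steers microglial processes, had 511, 425, 519 and 513 normalized counts in the hippocampus, against 433, 426, 461 and 422 in the PFC. Replicates 1, 3 and 4 of the hippocampus lay above all PFC libraries, and Hippocampus replicate 2 lay within the PFC range. Means were 492 ± 44.6 in the hippocampus, against 436 ± 17.7 in the PFC, with a log2 fold change of 0.17 (95% interval -0.06 to 0.40, adjusted p 0.49 by limma). Without Hippocampus replicate 2 the fold change was 0.24 on the log2 scale and the adjusted p 0.13.

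Cx3cr1, the receptor for the neuronal chemokine Cx3cl1, had 357, 389, 364 and 307 normalized counts in the hippocampus, against 413, 315, 324 and 329.5 in the PFC. The highest of the 8 values was in Prefrontal_cortex replicate 1 and the lowest in Hippocampus replicate 4, and the ranges overlapped. The log2 fold change of Cx3cr1 was 0.04 (95% interval -0.23 to 0.31, adjusted p 0.93 by limma).

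Csf1r, the receptor that microglia need to survive, had the most normalized counts of the 9 genes. It had 1121, 979.5, 1120 and 1003 in the hippocampus, against 1108, 983, 1041 and 1161 in the PFC. Means were 1056 ± 75.2 in the hippocampus, against 1073 ± 77.7 in the PFC, and the difference was smaller than the SD of either region. The log2 fold change was -0.02, and its 95% interval of -0.23 to 0.19 was the narrowest of the 9.

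Trem2 had 65.3, 197, 65.1 and 57.8 normalized counts in the hippocampus, against 111, 62.8, 94.5 and 93.5 in the PFC. Hippocampus replicate 2 held 3.03 times the median of the other 3 hippocampus libraries, from 205 reads (95% Poisson interval 171 to 226 normalized counts). The other 3 hippocampus libraries overlapped with the PFC through Prefrontal_cortex replicate 2. With all libraries the log2 fold change was -0.08 (95% interval -0.75 to 0.58, adjusted p 0.94 by limma), and without Hippocampus replicate 2 it was -0.49 (adjusted p 0.14). The sign of the difference also turned with the test, at 0.11 by edgeR and 0.10 by DESeq2, so no direction is given for Trem2.

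The 3 chains of C1q were each lower on average in the hippocampus than in the PFC, and none passed the threshold. C1qb had 407, 346, 423 and 360.4 normalized counts in the hippocampus, against 475, 409, 494 and 489 in the PFC, where only Prefrontal_cortex replicate 2 fell inside the hippocampus range. Its log2 fold change was -0.28 (95% interval -0.53 to -0.03), with an unadjusted p of 0.028 and an adjusted p of 0.21 by limma. C1qc had 503, 351, 504 and 416 normalized counts in the hippocampus, against 483, 468, 509.9 and 559 in the PFC. Its ranges overlapped, and the log2 fold change was -0.20 (95% interval -0.47 to 0.07, adjusted p 0.50 by limma). Without Hippocampus replicate 2, the lowest C1qc value, it was -0.09 (adjusted p 0.67), and without that library and Prefrontal_cortex replicate 4 it was -0.04. C1qa, with 96.5, 150.1, 90.3 and 71.6 normalized counts in the hippocampus, against 99.9, 123, 105 and 139 in the PFC, had a log2 fold change of -0.23 (95% interval -0.67 to 0.22, adjusted p 0.68 by limma). For C1qa it was -0.43 without Hippocampus replicate 2 (adjusted p 0.13), -0.14 without Prefrontal_cortex replicate 4, -0.08 without Hippocampus replicate 4, and -0.34 without Hippocampus replicate 2 and Prefrontal_cortex replicate 4 together. C1qb and C1qc had the same order of hippocampus libraries, replicate 2 lowest, then 4, 1 and 3. Replicates 1 and 3 of C1qc were nearly tied (502.9 and 503.7). Csf1r on chromosome 18 and Tmem119 on chromosome 5 also had replicate 2 lowest and replicate 4 next. C1qa had another order, with replicate 2 highest. The 3 chains assemble into a single protein, but their RNA did not share 1 order of these libraries.

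**Figure D2:**
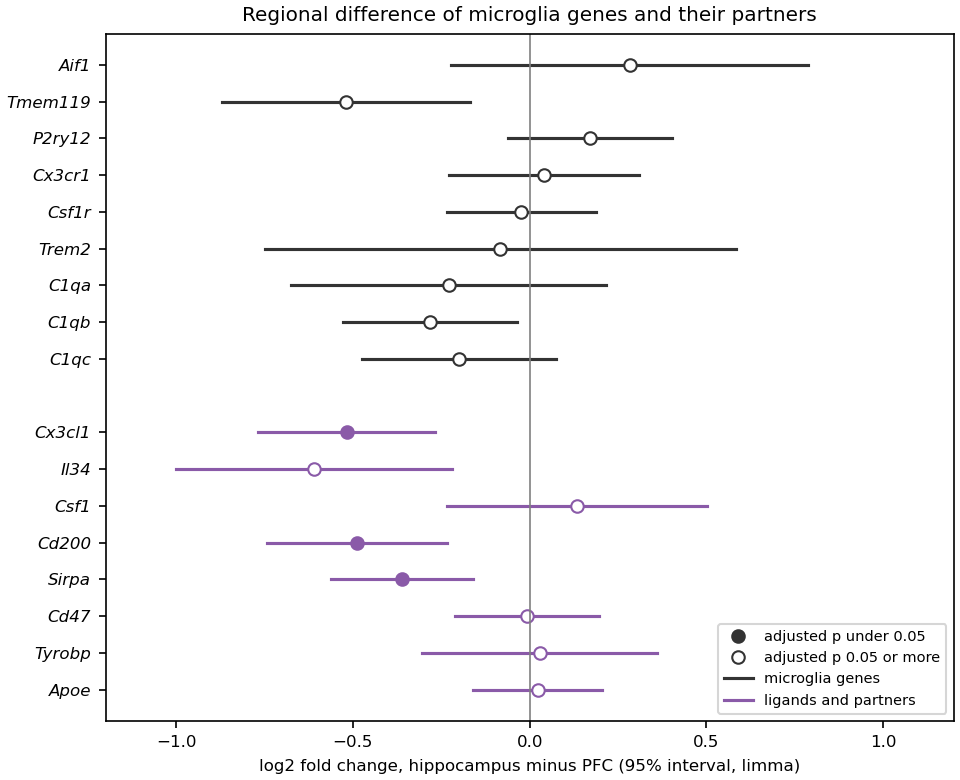
Log2 fold change of hippocampus over PFC with its 95% interval (limma, x axis) for the 9 microglia genes (black) and 8 ligands or partners (purple), with filled circles at an adjusted p under 0.05. The filled circles are Cx3cl1, Cd200 and Sirpa, all to the left of 0, and no microglia gene is filled.

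Levels between the genes were compared per kb of annotated exons. In the hippocampus C1qb was highest with 353 ± 33.7 normalized counts per kb (SD, n = 4), followed by C1qc with 230 ± 38.3, P2ry12 with 207 and Csf1r with 202. C1qa (98.2 per kb), Cx3cr1 (95.1) and Tmem119 (85.5) formed the middle of the order, and Aif1 (32.3) and Trem2 (19.5) the bottom. Between neighbours in this order, the libraries did not overlap only between C1qb and C1qc, Csf1r and C1qa, and Tmem119 and Aif1. In the PFC the order was C1qb (429 per kb), C1qc (262), Csf1r (205), P2ry12 (183), Tmem119 (120.1), C1qa (112), Cx3cr1 (92.6), Aif1 (26.6) and Trem2 (18.3). There the neighbours Csf1r and P2ry12, Tmem119 and C1qa, C1qa and Cx3cr1, and Aif1 and Trem2 overlapped. Csf1r led by counts but not per kb because its exons span 5229 bases, against 1088 for C1qb. That length includes the 871 bases shared with Hmgxb3, so the level of Csf1r per kb and its place in the order may be understated. The order depends on the length used. Per kb of the longest coding transcript, C1qc was above C1qb in the hippocampus (369 against 353) and below it in the PFC (419.8 against 429). The exons of Trem2 cover 4946 bases in all, while its longest coding transcript has 1088, and per kb of that transcript the level of Trem2 was 88.6 in the hippocampus, against 83.1 in the PFC.

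**Figure D3:**
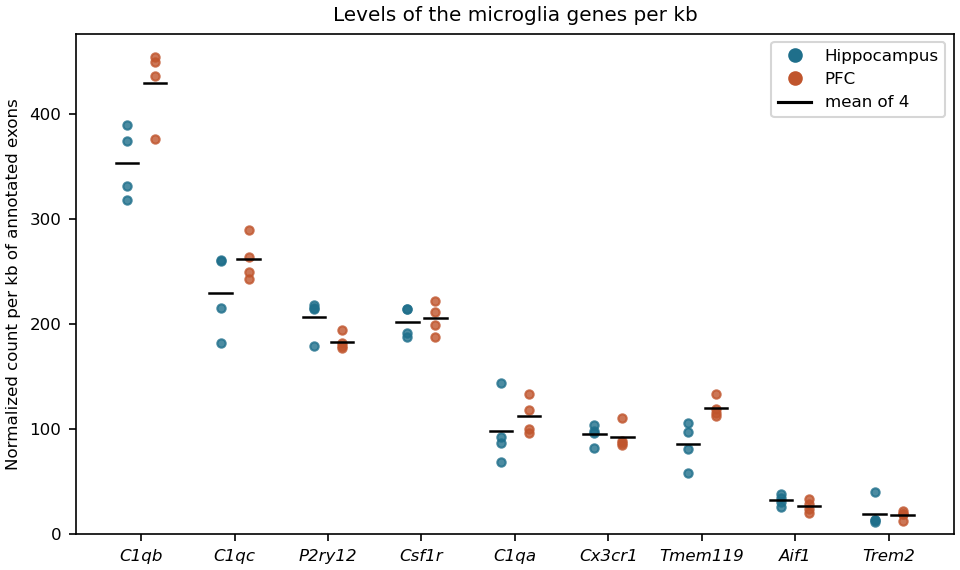
Normalized counts per kb of annotated exons (y axis) of the 9 microglia genes, ordered by their hippocampus mean, with a point for each hippocampus library (blue) and PFC library (orange) and a bar at the mean of 4. By this length C1qb is highest in both regions, at 353 per kb in the hippocampus, against 429 per kb in the PFC, and Trem2 lowest, at 19.5 and 18.3 per kb in the same order.

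Prefrontal_cortex replicate 4 was looked at on its own. It was the highest of the 8 libraries in 3 of the 9 genes (Csf1r, Tmem119 and C1qc) and the lowest in 1 (P2ry12). Over all genes tested it was the highest in 14.5% and the lowest in 13%. Set against the median of the other 3 PFC libraries, its values ran from 0.974 in P2ry12 to 1.32 in C1qa with a median ratio of 1.12, and 7 of 9 genes were above 1, as were 51.9% of all 12957 genes, whose median ratio was 1.01. Hippocampus replicate 1 also had 7 of 9 genes above 1 and a median ratio of 1.12 within its own region. None of the 9 differed by more than 1.5-fold, and the summed level of the 9 genes was 3545 normalized counts, 1.06 times that median. Over 40 further microglia and myeloid genes at a mean of at least 20 normalized counts, the median ratio of this library was 1.14. Other markers departed further in the same library. Its summed choroid plexus markers were at 0.228 of the median of the other 3 PFC libraries, its oligodendrocyte markers at 0.703 and its red blood cell markers at 0.664. Low choroid plexus and oligodendrocyte markers were not particular to it. By the same ratio, Prefrontal_cortex replicate 3 was at 0.422 for choroid plexus and 0.739 for oligodendrocyte markers. Prefrontal_cortex replicates 1 and 2 were high, at 2.37 and 2.9995 for choroid plexus and 1.399 and 1.353 for oligodendrocyte markers. The values of Prefrontal_cortex replicate 4 also rose with the GC content of the transcript over 12137 genes (Pearson r = 0.31). This is a description over genes of 1 library, which are not independent replicates. Correlations of that size with the opposite sign were seen in Prefrontal_cortex replicate 2 (r = -0.32) and Hippocampus replicate 4 (r = -0.31). C1qa, with the highest ratio in Prefrontal_cortex replicate 4, has the highest GC content of the 9 genes (59.5%) and P2ry12 the lowest (39.1%). In rising order of GC content, the ratios of the rest were 1.02 (Cx3cr1), 1.17 (Aif1), 1.12 (Csf1r), 1.03 (C1qb), 1.16 (C1qc), 0.99 (Trem2) and 1.15 (Tmem119). The part of these markers and of GC content in the microglia values was not tested.

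Hippocampus replicate 2 departed in both directions. Trem2 (3.03) and C1qa (1.66) lay more than 1.5-fold above the median of the other 3 hippocampus libraries, and Tmem119 (0.604) more than 1.5-fold below it. C1qc was at 0.698, P2ry12 at 0.83, C1qb at 0.852 and Csf1r at 0.875 of that median. The values of this library rose with the GC content of the transcript over 12137 genes (Pearson r = 0.40, again as a description). Among the 9 genes, P2ry12, with the lowest GC content, was below the other hippocampus libraries and C1qa, with the highest, above them, while Tmem119 (59.1% GC) was below, Trem2 (57.5% GC) above and C1qc (also 57.5% GC) below. Its red blood cell markers summed to 1.78 times and its choroid plexus markers to 0.471 of the median of the other 3 hippocampus libraries. The part of these differences in the microglia values was not tested.

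**Figure D4:**
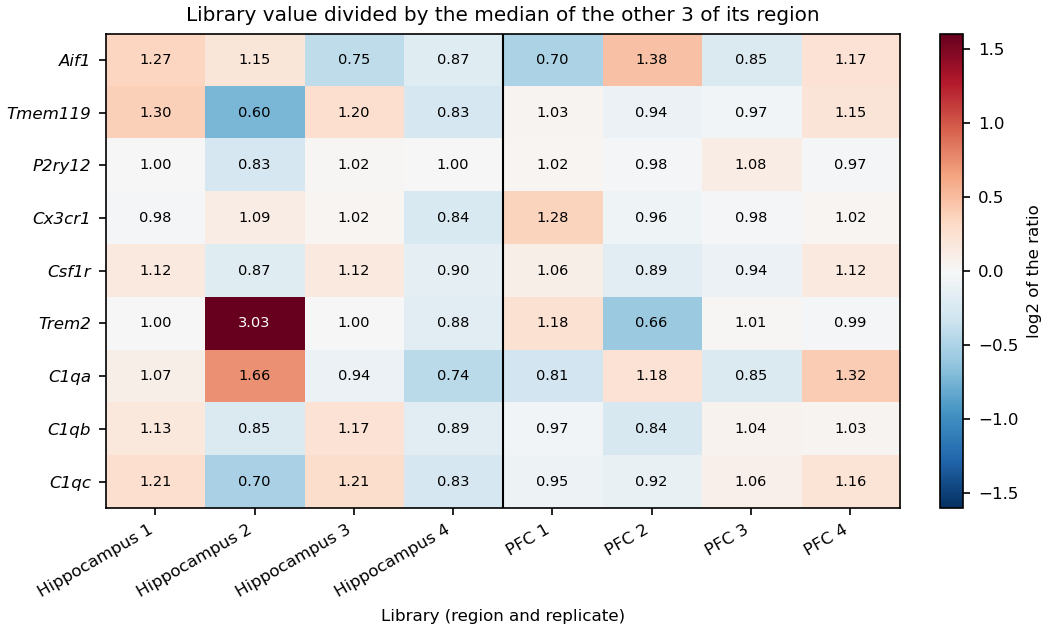
Value of each library divided by the median of the other 3 libraries of its region, for the 9 microglia genes (rows) in the hippocampus and PFC libraries (columns). The color gives the log2 of the ratio and the printed number the ratio. The extremes are Trem2 (3.03), C1qa (1.66) and Tmem119 (0.60) in Hippocampus replicate 2, and in Prefrontal_cortex replicate 4 the ratios run from 0.97 to 1.32.

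The 9 genes did not share 1 pattern across the 8 libraries. After each gene was centred on its own log2 mean, their average was lowest in Hippocampus replicate 4, at -0.21, and highest in Prefrontal_cortex replicate 4, at 0.14. The correlation of a gene with the mean of the other members ran from r = -0.70 for P2ry12 to 0.52 for C1qa over the 8 libraries, which differ in depth. Among the 10 other genes whose pattern was most like the average were Naglu, Tysnd1, Bud13, Arl4d, Ldb1, Cort, Aaas, Rnf187 and 1300018I17Rik (r = 0.95 to 0.92 over 8 libraries, the top of 12948 genes). None of the 10 is on the wider microglia lists. Of the 40 genes of those lists at that level, 1 was among the top 100, and their median r was 0.18, beside 0.0096 over all genes.

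A wider set of microglia genes gave no call either. It joins 13 genes of homeostatic microglia and 31 of general myeloid cells, and 1 more gene of the general myeloid list was not analysed here. Of these 44 genes 0 passed the threshold by limma, by edgeR or by DESeq2, where limma called 5.68% of all genes tested. An unadjusted p under 0.05 by limma was found for 3, beside 16.9% of all genes. These were Blnk (log2 fold change -0.84), Selplg (-0.30) and Cyth4 (0.50), named after their values were seen. The regions did not overlap for 2 of the 44, Selplg and Cyth4, beside 11.8% of all genes. The median log2 fold change of the 44 genes was -0.01, with a range of -0.84 to 0.50. Tgfbr1, a receptor for TGF-beta, had 423 ± 44.6 normalized counts in the hippocampus, against 369 ± 53.6 in the PFC (adjusted p 0.50). Ctss, a lysosomal protease, had 497 ± 152 in the hippocampus, against 509.7 ± 68.1 in the PFC (adjusted p 0.90). Itgam, the CD11b integrin chain, had 285 ± 34.9 in the hippocampus, against 262 ± 6.0 in the PFC (adjusted p 0.75). Of the complement genes other than C1q, 18 of 21 passed the filter on low values. Of these, 0 passed the threshold by limma and 0 had an unadjusted p under 0.05, beside 5.68% and 16.9% of all genes tested.

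Some genes on a list of ligands and partners differed between the regions. Of 19 ligands and partners of the receptors, 3 were lower in the hippocampus than in the PFC and 0 were higher, while 3.13% of all genes tested were lower in the hippocampus and 2.55% were higher. Cx3cl1, the ligand of Cx3cr1, had 4541, 5439, 4308 and 4299 normalized counts in the hippocampus, against 6097, 6094, 6199 and 8349 in the PFC. Its libraries did not overlap between the regions, and it fell by 0.52 on the log2 scale (SE 0.12, adjusted p 0.014 by limma). Its receptor Cx3cr1 had a log2 fold change of 0.04, and the difference between the pair was not tested. The call was lost without Hippocampus replicate 3 (adjusted p 0.058), Hippocampus replicate 4 (0.052) or Prefrontal_cortex replicate 4 (0.056). Cd200, a membrane protein of neurons that restrains microglia through Cd200r1, had 640.04, 476, 569 and 575 normalized counts in the hippocampus, against 670.1, 851, 781 and 872 in the PFC. Its log2 fold change was -0.49 (SE 0.12, adjusted p 0.023 by limma), and the call was lost without Hippocampus replicate 3 or Prefrontal_cortex replicate 2, 3 or 4 (adjusted p up to 0.096). Sirpa, the receptor of the Cd47 signal, found on both neurons and myeloid cells, had 2353, 2499, 2455 and 2518 normalized counts in the hippocampus, against 2972, 2868, 3289 and 3530.4 in the PFC. Its log2 fold change was -0.36 (SE 0.09, adjusted p 0.032 by limma), and the call was lost without Hippocampus replicate 1, 3 or 4 or Prefrontal_cortex replicate 3 or 4 (adjusted p up to 0.12), and with no filter on low values (0.058).

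**Figure D5:**
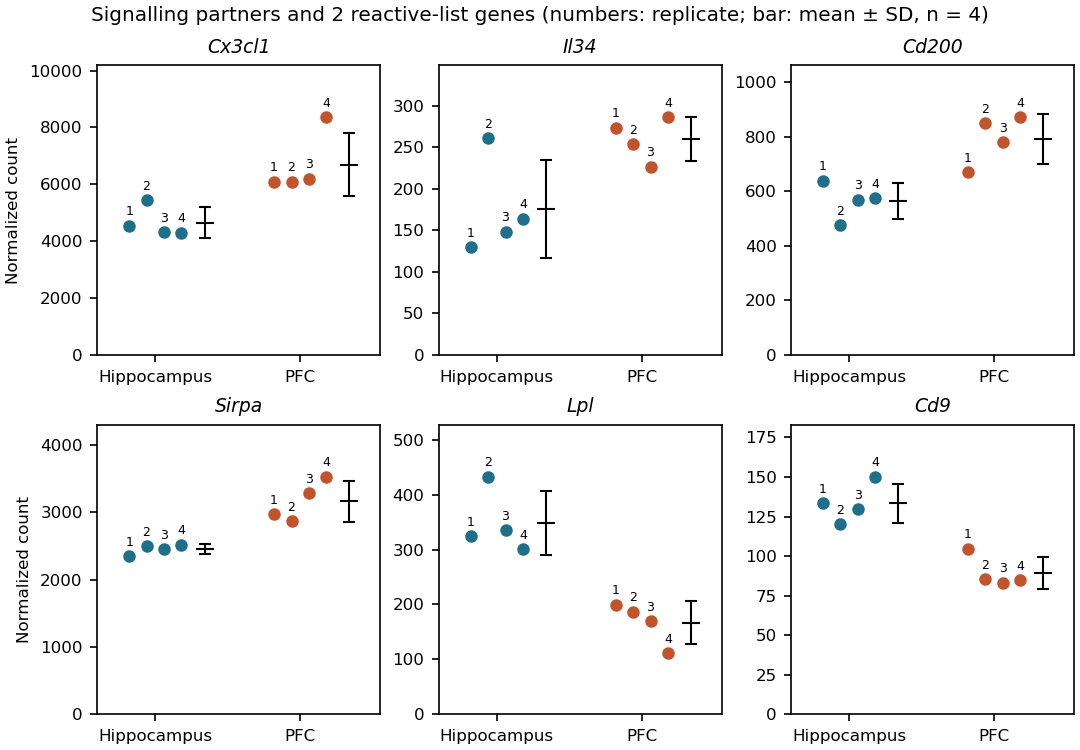
Normalized counts (y axis of each panel, starting at 0) of Cx3cl1, Il34, Cd200, Sirpa, Lpl and Cd9 in the 4 hippocampus libraries (blue) and the 4 PFC libraries (orange), with the replicate number above each point and the mean ± SD (n = 4) at the side. Cx3cl1, Cd200 and Sirpa are lower and Lpl and Cd9 higher in every hippocampus library than in every PFC library, and Hippocampus replicate 2 of Il34 (261) lies within the PFC range.

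The 2 ligands of Csf1r were measured in the same libraries. Il34, made mainly by neurons, had 129, 261, 148 and 164 normalized counts in the hippocampus, against 274, 254, 226 and 286 in the PFC. Hippocampus replicate 2 lay inside the PFC range and the other 3 hippocampus libraries lay below it. With all libraries the log2 fold change was -0.61 (SE 0.19, adjusted p 0.068 by limma). It passed the threshold without Hippocampus replicate 2 (-0.82, adjusted p 0.00020), without that library and Prefrontal_cortex replicate 4 (-0.77, adjusted p 0.00070), and with libraries weighted by their quality (-0.84, adjusted p 0.00011). Il34 was singled out after its values were seen. Csf1, the other ligand, had 157 ± 16.7 normalized counts in the hippocampus, against 145 ± 32.5 in the PFC (log2 fold change 0.13, adjusted p 0.80), and Tyrobp, the adaptor of Trem2, had 164 ± 19.9 in the hippocampus, against 161 ± 26.2 in the PFC (log2 fold change 0.03, adjusted p 0.96).

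Of 19 genes that reactive microglia turn on, 17 passed the filter on low values and 2 passed the threshold, both higher in the hippocampus, as were 2.55% of all genes tested. Lpl, lipoprotein lipase, had 325, 433, 336 and 300.3 normalized counts in the hippocampus, against 199.8, 187, 169 and 112 in the PFC. The groups did not overlap, the log2 fold change was 1.08 (SE 0.18, adjusted p 0.0014 by limma), and Lpl passed under all 19 alternatives, the lowest log2 fold change among them being 0.79. Cd9, a tetraspanin, had 133, 120.3, 129.7 and 150.2 normalized counts in the hippocampus, against 105, 85.4, 83.1 and 84.7 in the PFC, with a log2 fold change of 0.57 (SE 0.16, adjusted p 0.045 by limma). The Cd9 call was lost without Hippocampus replicate 1, 3 or 4 or Prefrontal_cortex replicate 2, 3 or 4 (adjusted p up to 0.14). Neither gene is restricted to microglia: Lpl is also made by neurons and Cd9 by oligodendrocytes. Lyz2, a lysozyme gene of macrophages, was lower in every hippocampus library than in every PFC library, at 48.5 ± 14.1 in the hippocampus, against 78.5 ± 5.82 in the PFC, and did not pass the threshold (log2 fold change -0.74, adjusted p 0.091). Lgals3, a galectin gene, had 6.49, 0.962, 4.73 and 9.24 normalized counts in the hippocampus, against 0, 0, 0 and 1.34 in the PFC, and did not pass either (adjusted p 0.075 by limma). Its values rest on few reads: 1 read is 0.962 normalized counts in Hippocampus replicate 2 and 2.31 in Hippocampus replicate 4. Lyz2 and Lgals3 were named after their values were seen. Spp1 had 36.7 ± 6.89 normalized counts in the hippocampus, against 46.1 ± 6.91 in the PFC.

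Markers of other cells of the tissue were read beside the microglia genes. All 8 oligodendrocyte markers were higher in the hippocampus, where they summed to 109553 to 117755 normalized counts, against 53302 to 78459 in the PFC. Opalin, Cldn11 and Mobp were among them, with log2 fold changes of 1.07, 0.96 and 0.87. Of the choroid plexus markers 5 of 6 were higher in the hippocampus (Ttr by 2.10 on the log2 scale), as were 3 of 4 ependymal markers (Foxj1 by 0.71), 2 of 5 of oligodendrocyte precursors (Gpr17 by 0.50), and 1 of 9 of astrocytes (Gja1 by 0.53). Among 6 mural cell markers Acta2 was higher by 0.83, with a median over the list of -0.01, and among 6 meningeal fibroblast markers Dcn was higher by 1.01, with a median over the list of -0.20. Tubb3, 1 of 9 neuronal markers, was lower in the hippocampus, at a log2 fold change of -0.72. The neuronal list had a median of -0.28 and a range of -0.72 to 0.35. The regions overlapped for Tubb3, since Hippocampus replicate 2 (1120 normalized counts) lay inside the PFC range. None of 8 endothelial and 5 red blood cell markers passed the threshold. These counts stand beside 2.55% of all genes tested that were higher in the hippocampus and 3.13% that were lower. A single call in a list this short is not read as a result about the list. The part of these cell types in the differences of Lpl, Cd9, Cx3cl1, Cd200 and Sirpa was not tested. Of the markers of border macrophages, which share several genes with microglia, 0 of 9 passed the threshold by limma, beside 5.68% of all genes tested. By limma 1 had an unadjusted p under 0.05 (Cd163, log2 fold change -0.82, named after its values were seen), beside 16.9% of all genes. The border macrophage markers summed to 192 to 223 normalized counts in the hippocampus, against 227 to 252 in the PFC. The sum of the 9 microglia genes was 2962 to 3363 in the hippocampus, against 3099 to 3545 in the PFC. Mrc1, the most abundant of the border macrophage markers, had 64.3 ± 12.5 in the hippocampus, against 73.6 ± 11.8 in the PFC. Of 13 markers of blood leukocytes 4 passed the filter on low values and 0 passed the threshold, beside 5.68% of all genes tested. Their sums were 7.36 to 23.1 normalized counts in the hippocampus, against 11.3 to 16.1 in the PFC.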

How the data were processed

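RNA of 4 hippocampus and 4 PFC libraries was sequenced after removal of ribosomal RNA and SPIA amplification. The authors mapped reads to the NCBIM37 genome (TopHat2 2.0.9), obtained counts per gene from HTSeq 0.6.0 without strand, and divided these by DESeq size factors. The deposited values are this signal, normalized counts per gene and library. Multiplied by the size factors, 100% of them lay within 1e-06 of a whole number, and these reads were used for edgeR 4.0.16 (quasi-likelihood), where 1170 genes passed the threshold, and DESeq2 1.42.0. Cufflinks 2.1.1 values were not used here.

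Regions were compared with limma 3.58.1 (R 4.3.3; variance trend, two-sided) on log2(normalized count + 1) over 19789 genes with a mean of at least 1, without covariates, with Benjamini-Hochberg adjustment and a threshold of 0.05. The pseudocount understates changes of low genes. The method was tested on simulated data. Alternatives were pseudocounts of 0.5 and 5, no filter or a mean of at least 10, TMM and quantile scaling, array weights, a replicate block, edgeR, DESeq2, leaving out each library, and, chosen after seeing the data, leaving out Hippocampus replicate 2 and Prefrontal_cortex replicate 4 together.

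The members and the lists were chosen with earlier results of these data known. Named were all members, up to 4 list genes past the threshold with the largest fold change or, with none, the 2 most abundant, and the 10 genes most like the members' average; Lyz2, Lgals3, Blnk, Selplg, Cyth4, Cd163, Il34, Csf1, Tyrobp, Spp1 and Ddx3y were named outside this rule. Results that rest on some genes of the rule are not reported here. Regions were compared unpaired, since which libraries share a pool of mice is not given in the sources used here. Python was 3.11.15.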

Additional observations from a re-analysis of the deposited data

Results flagged for a closer look

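Within a region of 4 libraries, 5 values lay far from the other 3 of their gene by Dixon's criterion, among 38 groups examined, where chance gives about 1 in 20. Of the 18 groups of the microglia genes, 3 were among them. Trem2 had 197 normalized counts in Hippocampus replicate 2, the highest of its region. P2ry12 had 425 in the same library, the lowest of its region. Cx3cr1 had 413 in Prefrontal_cortex replicate 1, the highest of its region. The other 2 were Cx3cl1, highest in Prefrontal_cortex replicate 4 at 8349, and Cd9, highest in Prefrontal_cortex replicate 1 at 105.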

How the results depend on the processing

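No microglia gene passed the threshold under any of the 19 alternatives, and no gene of the wider microglia set did. The count of all genes past the threshold (1124) was 2441 with array weights and 1973 without Hippocampus replicate 2 and Prefrontal_cortex replicate 4 together. It ranged between 575 and 2224 when each library was left out in turn, with 2224 without Hippocampus replicate 2 and 578 without Prefrontal_cortex replicate 4. The cause was not tested. Signs turned only for Cx3cr1, Csf1r and Trem2, whose differences were near 0. Cx3cr1 had a log2 fold change of -0.0053 without Hippocampus replicate 2, -0.00042 without Prefrontal_cortex replicate 2, -0.025 without Hippocampus replicate 2 and Prefrontal_cortex replicate 4, and up to 0.13 when another library was left out. Csf1r had 0.046 with array weights, 0.011 without Hippocampus replicate 2, 0.015 without Prefrontal_cortex replicate 4 and 0.050 without both, and down to -0.065 when another library was left out. Trem2 had 0.11 by edgeR, 0.0996 by DESeq2, 0.034, 0.036 and 0.092 without Hippocampus replicates 1, 3 and 4, 0.024 without Prefrontal_cortex replicate 1, and -0.49 without Hippocampus replicate 2.

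With the replicate number as a block, 729 genes passed the threshold. Same-numbered libraries did not deviate together (r of -0.13, -0.09, 0.03 and 0.02 for numbers 1 to 4), and whether same-numbered libraries share a pool is not given, so the numbers were not used as pairs. Each pool seems to have given both regions, and a pairing under other numbers was not tested. Under the block, Cd200 (adjusted p 0.077), Sirpa (0.11) and Cd9 (0.12) did not pass. With 20 to 205 reads per library, Aif1 and Trem2 are the least precisely measured of the 9.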
